A study of Mus musculus with 4 samples.

Results

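The genes described here encode the enzymes of cholesterol synthesis and the proteins that control them through the SREBP transcription factors. They were taken by name from the annotation of the spots on the arrays, and a gene is represented by its brightest probe over the 4 arrays. The list holds 30 genes, with Msmo1 looked for under 2 names. Of these, 29 were found among 36918 gene names, and all 29 were among the 19093 genes tested. Acat2, the cytosolic thiolase that joins acetyl-CoA units, was not matched and is not analysed here. The gene Erg28 carries its older name, 0610007P14Rik, in the files.

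Expression was measured in mouse cancer cells from pancreatic cancer of the C57BL/6 strain, in a pair of cell preparations called K5 and K6, here called lines, with 1 array for each line and condition. The control arrays, 1 for K5 and 1 for K6, come from DMSO-treated cells, and the halofuginone arrays, also 1 for K5 and 1 for K6, from cells given 100 nM of the drug for 24 hours. Halofuginone blocks the charging of proline onto its tRNA by the protein product of Eprs. The labels name no genotype, transgene or age, do not say what distinguishes K5 from K6, and do not say whether the samples came from separate cultures. P-values below therefore concern only the spread between these samples, which may be technical.

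In the cell, acetyl-CoA is built into mevalonate, mevalonate is phosphorylated and decarboxylated to isoprenoid diphosphates, these are joined to squalene, and squalene is closed to lanosterol and trimmed to cholesterol. Genes for most of these enzymes are targets of SREBP, which sits in the membrane of the endoplasmic reticulum bound to its escort Scap. When sterols are low, Scap carries SREBP to the Golgi, where the proteases encoded by Mbtps1 and Mbtps2 release the active factor, and when sterols are high, Insig proteins hold Scap back. NF-Y and Sp1 are known partners of SREBP at such promoters. In pancreatic cancer cells the pathway supplies membrane sterol and the isoprenoids attached to small GTPases.

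Promoter sequences are shown first, for some of the genes that fell and for 1 that did not pass. RefSeq promoters (GRCm38.p6, from 250 bases before to 50 bases after the start) were matched by symbol for 25 of the 30 genes. Fdps, Fdft1, Sqle, Stard4 and Npc1 had no entry. Both strands were searched for each motif. The NF-Y motif CCAAT was found in 20 of 25 genes (80.0%), against 41.1% of the 27025 genes in the table. The Sp1 motif GGGCGG was found in 22 of 25 (88.0%), against 38.2%. The SREBP motif TCACNCCAC was found in 1 of 25, Hmgcs1, against 1.44% of all genes. The amino acid response motif TGATGNAAN was found in 2 of 25, Idi1 and Insig2, against 4.50%. Only these letters were searched, with N as any base, so a promoter without a match is not shown to lack a site. Of the 99 matches in these promoters, 0 pairs from different motifs shared bases, and a match describes letters only. Of the 24 genes with both a promoter and a tested probe, the 20 with CCAAT held 9 of the genes that fell after halofuginone, with a median log2 change of -1.76. The 4 without it, 0610007P14Rik, Scap, Mbtps1 and Mbtps2, held 0, with a median of -0.61. Scap, Mbtps1 and Mbtps2 are regulators, a section of 7 genes of which 1 fell, so motif and section are mixed in this split. These counts and medians are descriptions with no test.

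The 200 bases before the start are printed 5′ to 3′ for 4 genes that fell and for Mbtps1, which did not pass the test. Mbtps1 was picked because its promoter holds no CCAAT, so its lack of a match is not a result. Msmo1, Hsd17b7 and Ggps1, which did not pass either, each hold more than 1 CCAAT before the start. Capitals mark CCAAT or its reverse complement and, in Hmgcs1, also the SREBP motif. Hmgcs1 holds the SREBP match, Mvk has the most CCAAT matches of the genes that fell (5), Tm7sf2 and Nsdhl had the largest falls, and Mbtps1 has no match of either kind.
Hmgcs1 (chr13:119690151-119690350, + strand): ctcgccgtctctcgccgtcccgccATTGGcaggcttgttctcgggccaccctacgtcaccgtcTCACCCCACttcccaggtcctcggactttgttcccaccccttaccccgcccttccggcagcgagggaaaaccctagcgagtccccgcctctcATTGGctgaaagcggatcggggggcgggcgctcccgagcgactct
Mvk (chr5:114444069-114444268, + strand): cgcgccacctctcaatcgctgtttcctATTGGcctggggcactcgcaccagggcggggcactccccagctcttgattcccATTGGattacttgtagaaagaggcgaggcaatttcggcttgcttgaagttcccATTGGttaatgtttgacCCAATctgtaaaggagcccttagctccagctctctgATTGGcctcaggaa
Tm7sf2 (chr19:6067851-6068050, - strand): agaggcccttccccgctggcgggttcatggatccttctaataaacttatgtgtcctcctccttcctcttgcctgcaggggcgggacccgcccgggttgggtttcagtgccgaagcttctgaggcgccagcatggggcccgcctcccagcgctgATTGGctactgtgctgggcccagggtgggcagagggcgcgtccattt
Nsdhl (chrX:72918321-72918520, + strand): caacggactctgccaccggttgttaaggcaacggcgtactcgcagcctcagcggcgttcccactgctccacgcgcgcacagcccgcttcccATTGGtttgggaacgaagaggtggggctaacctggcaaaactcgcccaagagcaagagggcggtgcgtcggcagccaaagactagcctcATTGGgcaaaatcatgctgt
Mbtps1 (chr8:119558762-119558961, - strand): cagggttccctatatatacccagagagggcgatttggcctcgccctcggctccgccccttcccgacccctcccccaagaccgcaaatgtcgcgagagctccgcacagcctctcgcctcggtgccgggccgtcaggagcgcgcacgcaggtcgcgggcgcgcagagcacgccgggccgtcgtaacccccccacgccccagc
In these 200 bases, 8 of 9 promoters of genes that fell held CCAAT, between 14 and 176 bases before the start, and 6 of them held more than 1. The ninth, Insig1, has its match 216 bases before the start. For these 200 bases the share was not counted over all genes or over the genes that did not pass. The count therefore does not set the genes that fell apart.

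After halofuginone, 11 of the 29 measured genes fell and 0 rose (limma adjusted p under 0.05 over all genes tested), where 5.08% of all genes tested fell, 3.88% rose and 8.96% did either. At an unadjusted p under 0.05, limma counted 17 lower and 1 higher, where 16.9% of all genes tested were lower and 17.2% higher. The fitted log2 change was negative in 26 of the 29 genes, with a median of -1.30, against 0.01 over all genes tested. It was -1.41 in K5 and -1.10 in K6. The 11 were Hmgcs1, Mvk, Mvd, Idi1 and Fdps of the early pathway, Cyp51, Tm7sf2, Nsdhl and Ebp of the late pathway, the regulator Insig1 and the sterol carrier Stard4. Both halofuginone arrays lay below both control arrays in 21 of 29 genes, against 28.6% of all genes tested, and above both in 2, Mbtps2 and Npc1, against 30.0%. In bulk samples, fewer cells that make a transcript and less of it per cell cannot be told apart.

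**Figure D1:**
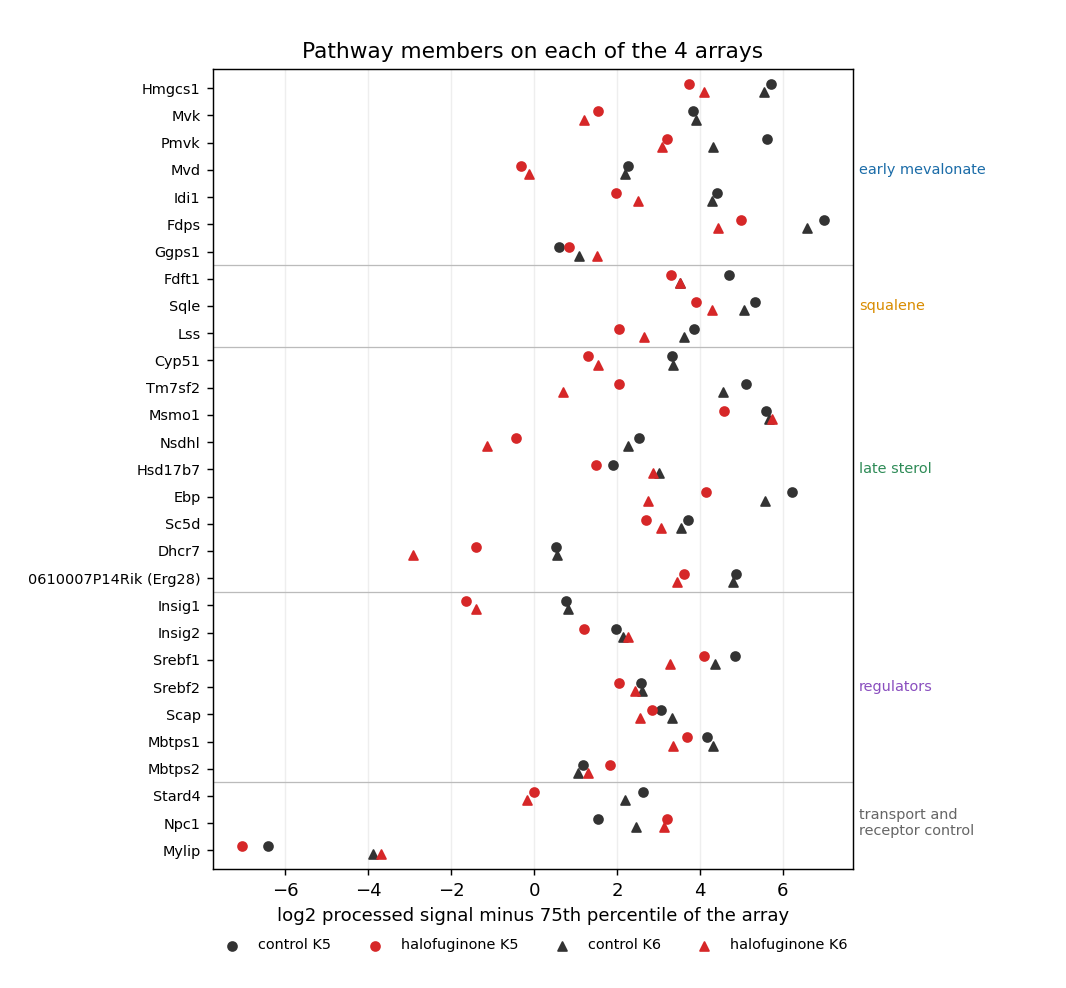
Normalised log2 signal (log2 of the processed signal, less the 75th percentile on that array) of the brightest probe of each gene on each of the 4 arrays, with control in black, halofuginone in red, K5 as circles and K6 as triangles. Levels are to be read along a row, since probes of different genes are not comparable. In 21 of 29 rows both red symbols lie to the left of both black symbols.

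The calls depend on the processing. All 11 were lost without the line in the model, without a filter on dim probes, with dim values raised to a common limit, and with scaling on probes detected on all 4 arrays (limma adjusted p up to 0.104, or 0.130 for Ebp), while the change of each of the 11 stayed negative. Over 11 alternatives the change of Tm7sf2 ran from -3.59 to -3.36, and that of Nsdhl from -3.31 to -2.38, its smallest with the mean over probes.

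On the control arrays 47.2% to 48.6% of spots stood well above background, and on the halofuginone arrays 53.1% to 54.0%. Every gene described here except Mylip was well above background on all 4 arrays. All 8 epithelial markers (Krt8, Krt18, Krt19, Krt7, Epcam, Cdh1, Cldn4 and Cldn7) were well above background on all 4 arrays, and 0 of them passed the test. Their summed signal, as log2 of the scaled signals added up, was 9.44 and 9.82 in controls and 9.92 and 9.93 after halofuginone. Of the 6 acinar markers, Cpa1, Ptf1a, Amy2a5 and Prss1 were not well above background on any array. Cela1 fell by 2.53 on the log2 scale, while Ctrb1 did not pass, with a change of -0.30. The summed signal of the acinar markers was 1.15 and 1.87 in controls and -0.44 and -1.13 after halofuginone. Cela1 alone read 1.80 in control K5 and 1.07 in control K6. Among the immune markers, Adgre1 was above background on no array, while Cd14 and Cd68 fell, and the summed signal was 4.77 and 4.92 in controls against 3.29 and 3.75 after halofuginone. Of the 3 fibroblast markers tested, Fbln1 fell by 1.67 on the log2 scale (log2 change -1.67), while Col1a2 and Pdgfra, dim in K6, did not pass and changed by -1.97 and 0.48 in K5. Pdgfrb and Lum were above background on no array, and the summed signal was -1.59 and 1.39 in controls against -2.70 and 0.13. For endothelial markers, with Cdh5 on no array, it was -3.85 and -3.15 against -3.04 and -1.16. Kdr passed the test as a rise of 2.61 on the log2 scale (SE 0.26, limma adjusted p = 0.0366). It was not well above background in control K5, and changed by 2.54 in K6. The part of such cells in the changes below was not tested.

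Along the early pathway, 5 of 7 measured genes fell and 0 rose, where 5.08% of all genes tested fell and 3.88% rose. The median log2 change of the 7 was -2.06. Hmgcs1, the HMG-CoA synthase that commits acetyl-CoA units to mevalonate, had a normalised log2 signal of 5.71 on the control and 3.73 on the treated array of K5, and of 5.54 and 4.11 on those of K6; values below follow this order and scale. The treated arrays lay apart from the controls in both lines. The fitted fall was 1.70 on the log2 scale (log2 change -1.70, SE 0.29, 2 lines, limma adjusted p = 0.0497), a 3.25-fold difference, so the gene passed close to the threshold. Its probe lies on mm9 in the unplaced part of chromosome 13, from 114793 to 114852.

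Mvk, mevalonate kinase, read 3.84 in control K5 and 1.54 after halofuginone, and 3.90 and 1.21 in K6. The control arrays differed by 0.06 and the treated arrays lay over 2 log2 units below them. It fell by 2.50 on the log2 scale (SE 0.27, adjusted p = 0.0380 by limma), a 5.64-fold difference, at a probe on mm9 chromosome 5 from 114910540 to 114910599. Its dimmer probe read -2.28 in K5 and -3.13 in K6.

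Pmvk, phosphomevalonate kinase, read 5.61 and 3.21 in K5 and 4.32 and 3.09 in K6, control before halofuginone. The treated arrays were close together and the control arrays 1.29 apart, so the change was -2.40 in K5 and -1.24 in K6. Its fitted change of -1.82 (SE 0.39) did not pass (limma adjusted p = 0.0656). A neighbouring probe gave -2.42 and -1.27.

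Mvd, the decarboxylase that makes isopentenyl diphosphate, read 2.26 and -0.32 in K5 and 2.20 and -0.12 in K6. It fell by 2.45 (SE 0.26, limma adjusted p = 0.0375), 5.46-fold, at a probe on chromosome 8 from 124957750 to 124957809. Idi1, the isomerase of isopentenyl diphosphate, read 4.42 and 1.98 in K5 and 4.30 and 2.50 in K6. It fell by 2.12 (SE 0.30, limma adjusted p = 0.0441), 4.35-fold, at a probe on chromosome 13 from 8891524 to 8891583. In both genes the controls of the lines were nearly level and the treated arrays lay well below them.

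Fdps, which makes farnesyl diphosphate, the branch point between sterols and other isoprenoids, read 6.99 and 5.0 in K5 and 6.58 and 4.44 in K6. It fell by 2.06 (SE 0.26, limma adjusted p = 0.0406), 4.17-fold, by nearly the same amount in both lines, at a probe on chromosome 3 from 88897549 to 88897608. Ggps1, which draws farnesyl diphosphate away from sterols to make geranylgeranyl diphosphate for protein prenylation, was the early gene with a positive change. It read 0.60 and 0.85 in K5 and 1.09 and 1.51 in K6, so that treated K5 lay below control K6 and the groups overlapped. Its log2 change was 0.33 (SE 0.26) and did not pass (limma adjusted p = 0.419). The other 4 of its probes that were well above background on all arrays read mean changes of 0.43 to 0.79, also positive.

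Of the 3 genes of the squalene section, 0 passed the test, where 8.96% of all genes tested did. A set this small allows no reading of its count. The median change of the section was -1.09 (-1.41 in K5 and -0.78 in K6). Fdft1, squalene synthase, read 4.70 and 3.30 in K5 but 3.52 and 3.52 in K6. The treated K6 array was thus level with its control, and the control K6 array lay near the treated K5 array. The fitted change was -0.70 (SE 0.44, limma adjusted p = 0.331). The probes of Fdft1 disagreed in K6, where the other one, which spans chromosome 14 from 63765750 to 63769990, read -0.82, against 0.01 at the brightest, from 63765457 to 63765516. In K5 they read -1.51 and -1.40.

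Sqle, the oxygenase that makes squalene epoxide, read 5.32 and 3.92 in K5 and 5.07 and 4.30 in K6. Lss, lanosterol synthase, read 3.87 and 2.05 in K5 and 3.61 and 2.65 in K6. Treated arrays lay below controls in both genes, with changes of -1.09 (SE 0.30, limma adjusted p = 0.0961) and -1.39 (SE 0.33, limma adjusted p = 0.0774), neither past the threshold. Both passed with normexp background correction, with a variance trend and with the filter on all 4 arrays. In the other alternatives neither passed. With the mean over probes, which takes in a probe of Sqle dim on all arrays, Sqle changed by -0.44 (SE 0.39, limma adjusted p = 0.477).

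**Figure D2:**
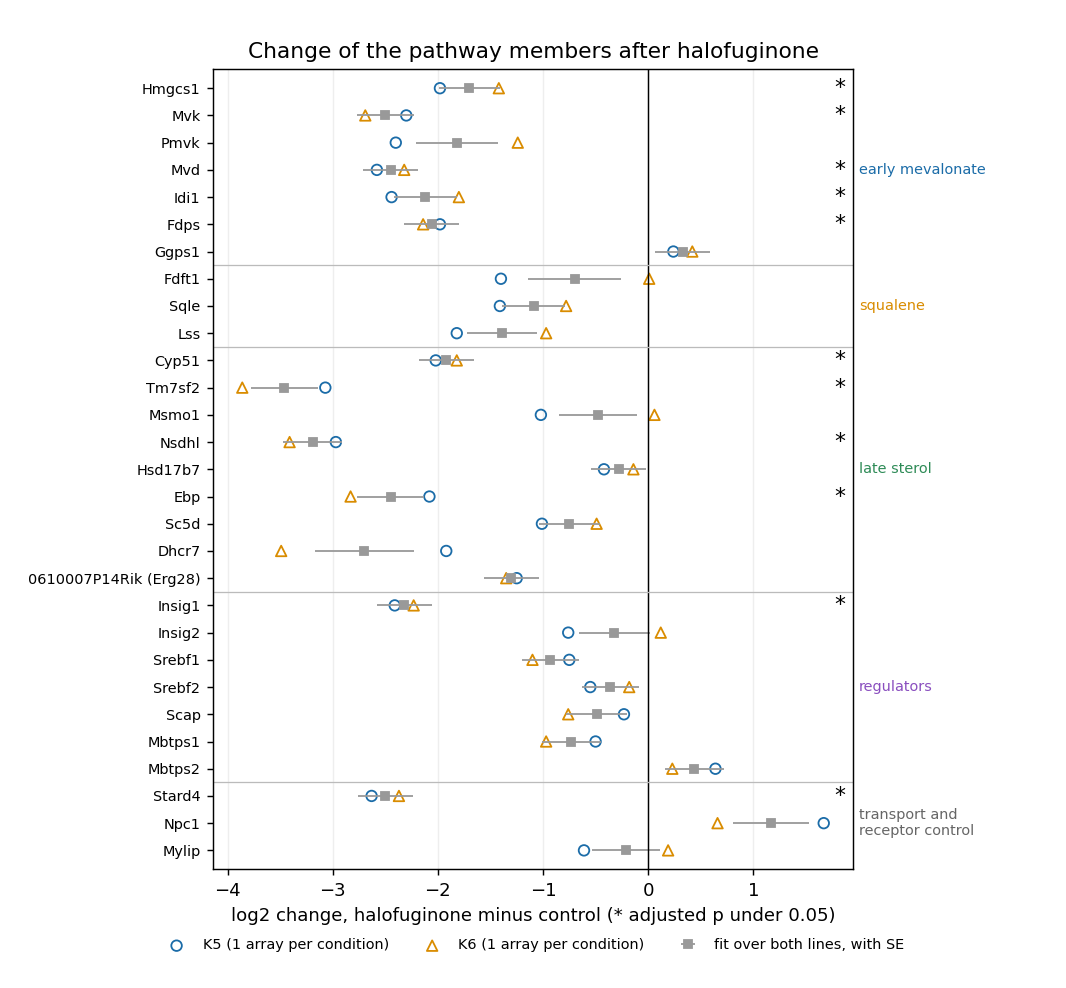
Log2 change (halofuginone minus control) of each gene, in pathway order. Grey squares with bars are the fitted change over both lines with its SE, open circles the K5 change and open triangles the K6 change, each of these from 1 array per condition, and asterisks mark adjusted p under 0.05. The symbols of the lines lie close together for Mvd (-2.58 and -2.32) and Fdps (-1.98 and -2.14) and apart for Fdft1 (-1.40 and 0.01) and Dhcr7 (-1.92 and -3.49).

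In the late pathway, from lanosterol to cholesterol, all 9 genes had a negative fitted change, against 9457 of the 19093 genes tested. Of the 9, 4 fell and 5 did not pass, where 5.08% of all genes tested fell. The median of the 9 was -1.92. Cyp51, the lanosterol demethylase, read 3.32 and 1.30 in K5 and 3.36 and 1.54 in K6. Its fall of 1.92 on the log2 scale (SE 0.26, limma adjusted p = 0.0431) was 3.78-fold and similar in both lines, at a probe on chromosome 5 from 4082122 to 4082181. A second probe read -1.80 and -1.67.

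Tm7sf2, a sterol reductase that acts on the product of Cyp51, had the largest change of the 29 genes. It read 5.11 and 2.05 in K5 and 4.57 and 0.71 in K6, with both treated arrays far below both controls. It fell by 3.46 (SE 0.32, limma adjusted p = 0.0359), 11.0-fold, and stood at place 248 from the lowest change among the 19093 genes tested. The probe lies on chromosome 19 from 6062882 to 6062941, and the second probe of the gene read -2.86 in K5 and -3.65 in K6.

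Msmo1, Nsdhl and Hsd17b7 act in turn to remove methyl groups from the sterol ring, on a scaffold encoded by Erg28. Nsdhl, the decarboxylating dehydrogenase of the set, read 2.54 and -0.44 in K5 and 2.27 and -1.13 in K6. It fell by 3.19 (SE 0.28, limma adjusted p = 0.0359), 9.13-fold, at a probe on chromosome X from 70203236 to 70203295. Its partners did not pass. Msmo1, the methylsterol oxidase, read 5.60 and 4.59 in K5 and 5.67 and 5.73 in K6, lower in K5 and level in K6, with a fitted change of -0.48 (SE 0.37, limma adjusted p = 0.419). A second probe of Msmo1 read -0.90 in K5 and 0.15 in K6, and another, dim on 1 array, -0.20 and -1.58. Hsd17b7, the ketosteroid reductase, read 1.91 and 1.50 in K5 and 3.01 and 2.87 in K6, a change of -0.28 (SE 0.26, limma adjusted p = 0.499). For this gene the arrays sorted by line, with both K6 arrays above both K5 arrays. The scaffold gene 0610007P14Rik read 4.87 and 3.62 in K5 and 4.80 and 3.45 in K6, and its change of -1.30 (SE 0.26) did not pass (limma adjusted p = 0.0589). So among the genes of this step, Nsdhl passed and the other three did not, though no test of the difference between genes was made.

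Ebp, the sterol isomerase, read 6.23 and 4.15 in K5 and 5.57 and 2.74 in K6. It fell by 2.45 (log2 change -2.45, SE 0.32, limma adjusted p = 0.0421), 5.48-fold, at a probe on chromosome X from 7762463 to 7762522, and a second probe read -2.20 and -2.75. Sc5d, the sterol desaturase that follows it, read 3.72 and 2.71 in K5 and 3.54 and 3.06 in K6. Its change of -0.75 (SE 0.29) did not pass (limma adjusted p = 0.162), and a dimmer probe read larger changes of -1.26 and -1.18. Dhcr7, which reduces the last double bond on one branch, read 0.53 and -1.39 in K5 and 0.56 and -2.92 in K6. The controls were level and the treated arrays 1.53 apart. With changes of -1.92 and -3.49 its SE was 0.47, the largest among the 29 genes, and the fitted -2.70 just missed the threshold (limma adjusted p = 0.0506). Dhcr7 passed with normexp, quantile normalisation, median centring, the authors' deposited values, a variance trend and the filter on all 4 arrays. It did not pass in the other alternatives (limma adjusted p from 0.0591 with the mean over probes to 0.124 without a filter).

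The changes are set side by side by line here, with no test, as each line has a single array per condition. Of the 10 measured genes of the early and squalene sections, 8 had the lower change in K5, the exceptions being Mvk and Fdps. Of the 9 late genes, 5 had the lower change in K6, namely Tm7sf2, Nsdhl, Ebp, Dhcr7 and 0610007P14Rik. Over all genes tested, 10176 of 19093 had the lower change in K5. With the higher array of the pair well above background, 19 of the 29 genes were at least 2-fold lower in K5 and 1, Npc1, at least 2-fold higher, where 14.9% and 14.1% of all genes tested were. In K6, 15 were at least 2-fold lower and 0 higher, where 16.4% of all genes were lower and 16.4% higher. At least 2-fold lower in both lines were 14 genes, against 9.62% of all genes tested.

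**Figure D3:**
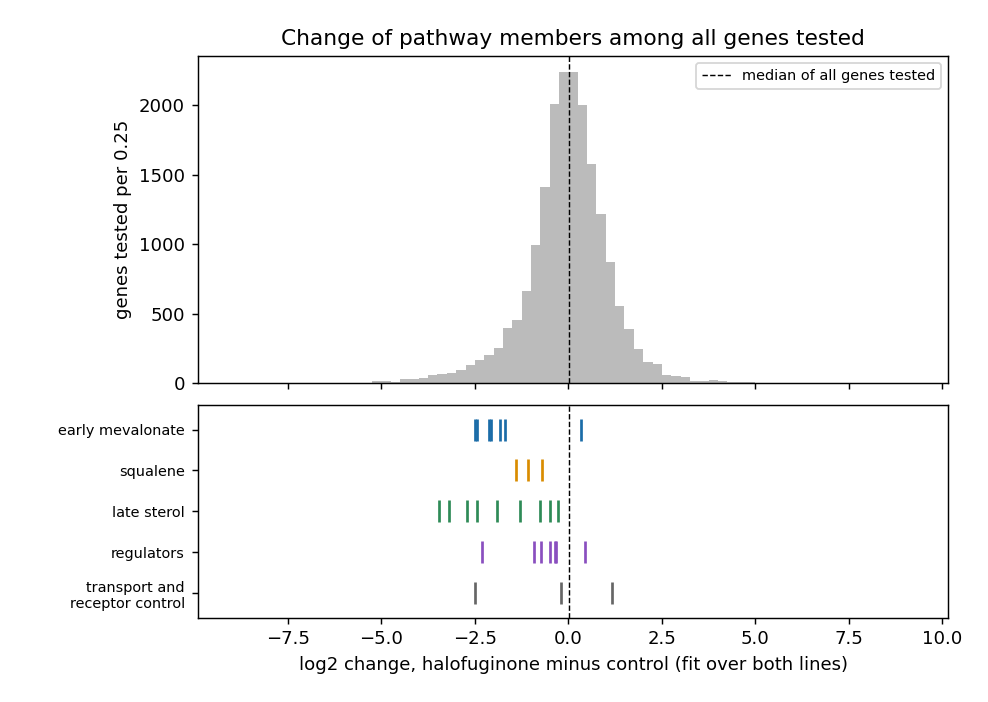
Upper panel: number of the 19093 genes tested in each 0.25 interval of log2 change (halofuginone minus control), with the median of all genes, 0.01, as a dashed line. Lower panel: a tick for each pathway gene, by section. The 9 late sterol genes all lie left of the dashed line, from -3.46 for Tm7sf2 to -0.28 for Hsd17b7, and Npc1 lies farthest right at 1.17.

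Among the 7 regulators, 1 fell and 0 rose, where 5.08% of all genes tested fell and 3.88% rose, with a median of -0.49. The one was Insig1, the retention protein of the endoplasmic reticulum whose own gene is a target of SREBP. It read 0.76 and -1.65 in K5 and 0.83 and -1.40 in K6. Both lines changed alike, by -2.41 and -2.23. The fitted fall was 2.32 on the log2 scale (SE 0.26, limma adjusted p = 0.0389), 4.99-fold, at a probe on chromosome 5 from 28404246 to 28404305. Insig2, its homologue, which is less responsive to SREBP, read 1.98 and 1.21 in K5 and 2.15 and 2.27 in K6. The change was -0.32 (SE 0.34, limma adjusted p = 0.538), and all 3 probes of Insig2 read lower values after treatment in K5, by -0.76, -0.77 and -1.13, and between -0.13 and 0.17 in K6.

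Srebf2, which encodes the SREBP most active on sterol genes, read 2.59 and 2.04 in K5 and 2.60 and 2.43 in K6, a change of -0.36 (SE 0.27, limma adjusted p = 0.404). The treated arrays lay just below the controls, and a second probe read -0.31 and 0.39. Srebf1, which encodes the SREBP forms that act on fatty acid and sterol genes, read 4.86 and 4.11 in K5 and 4.37 and 3.27 in K6. Its change of -0.93 (SE 0.27) did not pass (limma adjusted p = 0.104). This probe does not tell the forms made from Srebf1 apart in the annotation used here.

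Scap read 3.07 and 2.84 in K5 and 3.32 and 2.55 in K6, a change of -0.49 (SE 0.29, limma adjusted p = 0.302). Mbtps1 read 4.18 and 3.69 in K5 and 4.33 and 3.36 in K6, a change of -0.73 (SE 0.28, limma adjusted p = 0.163), and all 4 of its probes were lower in both lines. Mbtps2 read 1.18 and 1.83 in K5 and 1.07 and 1.30 in K6, a change of 0.44 (SE 0.28, limma adjusted p = 0.335). The escort and both proteases therefore showed smaller changes than Insig1, of either sign, and none of the 3 passed.

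Stard4, a soluble carrier of sterol between membranes, read 2.64 and 0.01 in K5 and 2.20 and -0.17 in K6. It fell by 2.50 (SE 0.26, limma adjusted p = 0.0375), 5.68-fold, at a probe on chromosome 18 from 33361181 to 33361240, and a second probe read -2.63 and -2.09. Npc1, which exports cholesterol from lysosomes, moved the other way. It read 1.55 and 3.22 in K5 and 2.47 and 3.13 in K6, so that the controls were 0.92 apart and the treated arrays nearly level. Its change of 1.17 (SE 0.36) did not pass (limma adjusted p = 0.116), and was 1.67 in K5 and 0.66 in K6. The other 3 probes of Npc1 were well above background on at most 2 arrays.

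Mylip encodes a ubiquitin ligase that sends lipoprotein receptors for degradation. It was not well above background on either K5 array, where it read -6.43 and -7.04, and was so on both K6 arrays, at -3.88 and -3.69. Its change after halofuginone was -0.21 (SE 0.32, limma adjusted p = 0.679), and it was 0.19 with quantile normalisation, 0.20 with the authors' deposited values and 0.09 with dim values raised to a common limit.

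**Figure D4:**
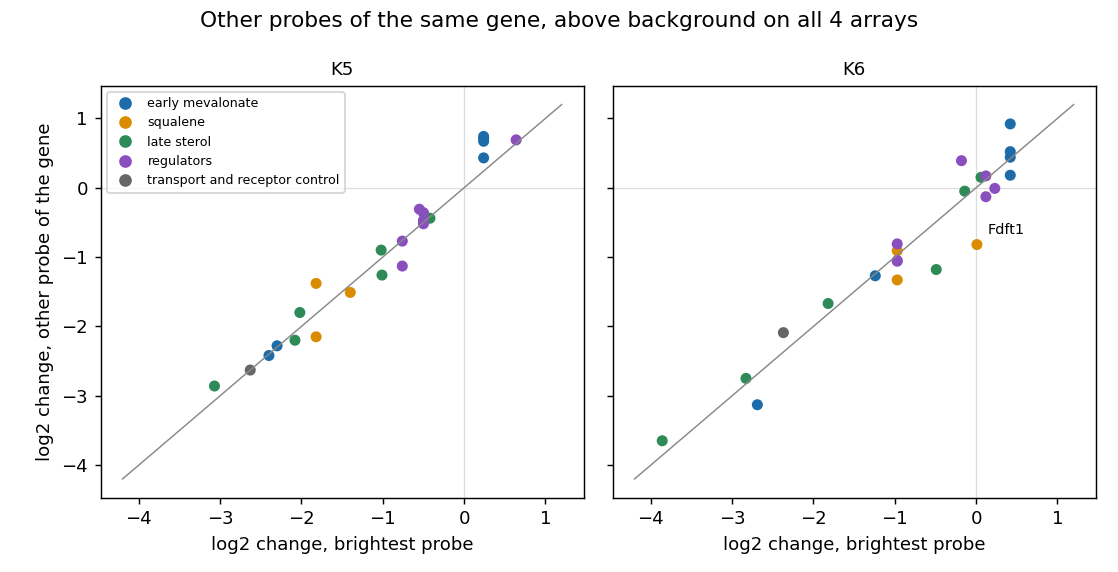
Log2 change of the other probes of a gene (vertical) against that of its brightest probe (horizontal), in K5 and in K6, for the 23 probes of 16 genes that were well above background on all 4 arrays; the line marks equal values and colours mark the pathway section. Of these 23, 22 had the sign of the brightest probe in the mean over lines, with a median absolute gap of 0.14, and the labelled point is Fdft1 in K6, at 0.01 and -0.82.

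The 29 genes were read by 64 probes in all, and 20 genes had more than 1. The largest gap between the mean change of a second probe and the brightest was 0.47, in Sc5d. The 1 probe of opposite sign was the second probe of Srebf2, at 0.04 against -0.36. The other 12 probes were dim on at least 1 array.

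Between the lines, 0 of the 29 genes passed in the same limma fit, where 0.173% of all genes tested did, and 4 had an unadjusted p under 0.05, against 15.5% of all genes. One of the 4, Mylip, entered the fit only through its K6 arrays, so its difference between the lines is a description. As the gene was dim in K5 (mean -6.73, against -3.79 in K6), the signal on the K6 arrays was at least 1.70-fold higher. This bound sets the mean of the K6 arrays against, for each K5 array, its lowest signal well above background. Hsd17b7 was higher in K6 by 1.23 (SE 0.26, limma adjusted p = 0.183). Ebp had a difference of -1.03 (SE 0.32, limma adjusted p = 0.277) and Tm7sf2 of -0.93 (SE 0.32, limma adjusted p = 0.314). Hsd17b7 passed with normexp.

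Genes around the pathway that are not in the list were read from 3 further sets. Of 9 genes that use farnesyl or geranylgeranyl diphosphate for dolichol, ubiquinone and protein prenylation, 0 passed, where 8.96% of all genes tested did. Their median change was 0.80, against -2.06 in the early pathway. Pdss1, which makes the side chain of ubiquinone, had the largest change, at 1.24 (SE 0.27, limma adjusted p = 0.0672), followed by Fnta, the alpha subunit shared by prenyl transferases, at 1.14 (SE 0.28, limma adjusted p = 0.0795), and Pggt1b, the beta subunit of a geranylgeranyl transferase, at 1.01 (SE 0.27, limma adjusted p = 0.0919).

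Of 17 genes of sterol uptake, storage and transfer, 1 fell and 1 rose, with a median of 0.01. These counts are near the shares over all genes tested, of which 5.08% fell and 3.88% rose. Lipa, the lysosomal acid lipase that frees cholesterol from its esters, fell by 3.24 on the log2 scale (SE 0.37, limma adjusted p = 0.0389), by -2.71 in K5 and -3.77 in K6. Osbpl2, an oxysterol-binding protein, rose by 1.64 (SE 0.26, limma adjusted p = 0.0478). Npc2, which hands cholesterol to Npc1 in the lysosome, had a change of -1.44 (SE 0.26, limma adjusted p = 0.0520) and did not pass. Vldlr, a lipoprotein receptor, had 1.35 (SE 0.55, limma adjusted p = 0.176), 0.39 in K5 and 2.31 in K6, and Stard3, a sterol carrier of late endosomes, -1.08 (SE 0.26, limma adjusted p = 0.0781).

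Of 15 genes for SREBP transport, its degradation in the endoplasmic reticulum and sterol sensing, 2 rose and 0 fell, with a median of 0.10. Over all genes tested, 3.88% rose and 5.08% fell, and a set this small allows no reading of its counts. Ube2g2, a ubiquitin-conjugating enzyme of that degradation route, rose by 2.28 (SE 0.34, limma adjusted p = 0.0454), and Erlin1, a membrane protein that binds Insig and Scap, by 1.62 (SE 0.26, limma adjusted p = 0.0481). Nr1h3 and Nr1h2, which encode the liver X receptors that sense oxysterols, had changes of -1.51 (SE 0.34, limma adjusted p = 0.0724) and -1.22 (SE 0.29, limma adjusted p = 0.0758), and neither passed. Rnf145, a sterol-responsive ubiquitin ligase, had a change of -1.26 (SE 0.27, limma adjusted p = 0.0641).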

How the data were processed

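Total RNA of 4 samples was amplified as Cy3-labelled cRNA for Agilent arrays of 1 colour, per the labels' protocols. The deposited intensity is the processed signal of Agilent Feature Extraction (10.7.1.1 per the file headers, 9.5.1.1 per the submitters' processing notes), background-subtracted and detrended within each array by the authors and not normalized between arrays; dim spots hold a surrogate value. The deposited flags per spot mark outliers and signal well above background. The authors' deposited value table, another intensity, has a median of 32.97434 in each column, so its columns were made alike; no source used here gives the step. Probe coordinates are on mm9. Which part of a transcript a probe reads was not annotated here. No spot was saturated; the number of arrays limits the precision.

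Control and outlier spots were left out, spots of a probe averaged (301 of 56605 probes lost), and log2 signal set to each array's 75th percentile. Genes entered the test where 2 or more arrays had the brightest probe well above background, with limma 3.58.1 in R 4.3.3 (lmFit, eBayes), with line and treatment as terms (1 residual and 2.97 prior degrees of freedom) and Benjamini-Hochberg adjustment over all 19093 genes at 0.05. Its residual holds only how far the K5 and K6 changes lie apart. The script was tested on simulated data. The numbers 5 and 6 name the same cells, so the line is the block; across genes the K6 minus K5 difference correlated at r = 0.50 between control and halofuginone. Alternatives changed background correction, scaling, values, filter, probe rule, variance model and block, and left out each line.

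The members and gene lists were chosen with earlier results of these data known. Every member is named; from the other sets, genes past the threshold and up to 3 others of largest change.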

Additional observations from a re-analysis of the deposited data

Results flagged for a closer look

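Genes well above background on all 4 arrays whose change after halofuginone had opposite signs in K5 and K6 are given here, with the K6 change minus the K5 change. The difference was not tested, as a condition has a single array in each line. It was 1.41 for Fdft1 (-1.40 in K5 and 0.01 in K6), 1.08 for Msmo1 (-1.02 and 0.06) and 0.88 for Insig2 (-0.76 and 0.12). In each the K6 change was near 0, and in Fdft1 a second probe read -0.82 in K6.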

How the results depend on the processing

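The median change of the 29 genes stayed between -1.42 and -1.27 over 11 alternatives, and was -1.10 without replicate 5 and -1.41 without replicate 6. With the block, leaving out a line leaves no residual degrees of freedom, so no counts were made there. At least 25 of the genes had a negative change under each of those 11, and 22 without replicate 5. With no replicate block, limma called 0 of the 29 genes (17 at an unadjusted p under 0.05) and 0 of all genes (4492). The calls were thus lost without the pairing of the lines, but not only there. With the pairing kept, limma called 0 and 0 also without a filter (13 and 15052 unadjusted) and with dim values raised to a common limit (17 and 5884). The same held with the 75th percentile over probes detected on all 4 arrays (19 and 6481). This last scaling moved the median of all genes to -0.115, from 0.009. Counts were larger with normexp (18 of the 29 genes and 5428 of all), the filter on all 4 arrays (18 of 28 and 4012) and a variance trend (18 and 4200), against 11 and 1710. Each of these 3 kept all 11 genes and added Pmvk, Sqle, Lss, Dhcr7, 0610007P14Rik, Srebf1 and Npc1. The mean over probes called 8 of the 29 genes and 592 of all, losing Hmgcs1, Idi1 and Cyp51. Of K6 against K5, 1 of the 29 genes passed with normexp (Hsd17b7), against 0. With quantile normalisation, median centring and the authors' values 1 passed, Mylip. Mylip entered the fit only through its K6 arrays, so this call is no support for a difference. Its higher signal in K6 remains a description of these arrays. The change of Mylip, -0.21, reversed to 0.19, 0.20 and 0.09 with quantile normalisation, the authors' values and the common limit. The cause of these shifts was not tested.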
